A study of Mus musculus with 12 samples.

Results

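The comparison described here set the 6 libraries from T cells conditionally lacking the glucocorticoid receptor (KO) against the 6 libraries from wild-type (WT) T cells, with treatment as a covariate. All 12 of the 12 libraries entered it: KO Dex, KO control, WT Dex and WT control, with 3 libraries in each group. The labels give the genotypes as GR cKO (C57/B6) and WT (C57/B6). In all groups naive CD4+ T cells, originating from dLN and spleen in the labels, had been differentiated in culture into homeostatic Th17 cells. The Dex groups received dexamethasone, a synthetic glucocorticoid, for 2 days, and the control groups did not. The Cre line, the deleted exons, the age and sex of the animals and the origin of the 3 libraries of a group were stated in no source used here. The p-values therefore measure the spread between these libraries, which may be technical. ATAC-seq counts transposase cuts in open chromatin, and 202587 of 222105 joint peaks were tested.

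The glucocorticoid receptor, encoded by Nr3c1, is a nuclear receptor held in the cytoplasm by Hsp90 and its co-chaperones until hormone binds. It then enters the nucleus, where it binds palindromic DNA elements or other factors such as AP-1 and NF-kB, and it opens or closes nearby chromatin. Th17 cells are the helper T cells that make IL-17A and depend on the nuclear receptor RORgt. The question addressed was which peaks, and which runs of neighbouring peaks, differed between the genotypes whether or not Dex had been added.

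Total counts ran from 12988437 to 25081591 per library. At CD4 T cell markers the strongest peak per gene averaged 32.2 to 103 counts per 1000000 (CPM) over the 12 libraries, with a median of 41.7 CPM for 10 genes. For the B cell list the median was 4.29 CPM, with Ms4a1 at 1.40 CPM, and for the CD8 T and NK cell list it was 8.84 CPM. The myeloid and dendritic list had a median of 6.21 CPM and the erythroid and stromal list 11.6 CPM. Ebf1, Itgam and Pecam1 held peaks above 40 CPM, at 41.4, 47.3 and 49.9 CPM. No peak of these 4 lists passed the genotype test. The summed level over the 61 peaks of the CD8 T and NK cell list was 201 to 221 CPM in KO libraries and 221 to 232 CPM in WT libraries without overlap, and the part of this in the results below was not tested. The summed levels of the other 3 lists and of the CD4 T cell list overlapped between genotypes. In bulk libraries, fewer cells with an open site and less opening per cell cannot be told apart.

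Nr3c1, the targeted gene, had 24 tested peaks on chromosome 18, of which 0 passed the test and 4 had an unadjusted p under 0.05 by edgeR. Its strongest peak, within the gene from 39488851 to 39492392 (mm10), was also the peak with the smallest p. It held 52.3, 60.6 and 57.4 CPM in KO control libraries and 69.9, 61.5 and 57.1 CPM in KO Dex libraries. The same peak held 60.2, 74.4 and 70.1 CPM in WT control libraries and 74.9, 82.0 and 65.3 CPM in WT Dex libraries. The log2 fold change, KO over WT, was -0.25 ± 0.07 (SE) with an edgeR adjusted p of 0.0933. The other peaks with an unadjusted p under 0.05 by edgeR were higher in KO cells. They lay from 39454946, 39457699 and 39518579, at log2 0.81, 0.30 and 0.24. Of all 24 peaks, 10 were lower in KO cells, and the median log2 fold change was 0.08. The deleted exons were stated in no source, so it is not known whether any of these peaks lies in a deleted part. The genotype labels could not be checked from these values.

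Averaged over treatments, 587 of 202587 peaks differed between KO and WT cells by edgeR's quasi-likelihood test (0.29% of tested peaks, Benjamini-Hochberg adjusted p under 0.05, called from here on). In KO cells 527 peaks were lower (0.26%) and 60 were higher (0.0296%), and they were assigned to 508 genes. At an unadjusted p under 0.05 there were 20848 peaks, or 10.3%. The called lower peaks were strong and moderately reduced, with a median of 28.2 CPM in KO cells and 36.3 CPM in WT cells and a median fold of 0.785. The called higher peaks were weak, with a median of 4.62 CPM in KO cells and 2.84 CPM in WT cells and a median fold of 1.64. All tested peaks had a median of 1.28 CPM in KO cells and 1.22 CPM in WT cells. The change reached 2-fold at 19 lower peaks, of which 5 lay outside a single run on chromosome 5 described below, and at 14 higher peaks.

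The number of calls depended on single libraries. It was 225, 410 and 114 when KO control replicate 1, 2 or 3 was left out, and 288, 600 and 140 for KO Dex replicate 1, 2 or 3. Leaving out WT control replicate 1, 2 or 3 gave 309, 136 and 263, and leaving out WT Dex replicate 1, 2 or 3 gave 56, 45 and 2591. In all, 40 peaks were called without each of the 12 libraries in turn, 20 of them in the chromosome 5 run, 15 lower peaks outside it and 5 higher peaks. Each KO library lay below each WT library at 175 of the called lower peaks, and above at 33 of the called higher ones. Over all tested peaks the libraries separated in this way at 735 peaks that were lower in KO cells (0.363%) and at 456 that were higher (0.225%).

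Peak level and direction were linked. In the strongest decile of peaks, 85.1% had a negative log2 fold change, the median was -0.12, and 425 of the 527 lower calls lay there. In the weakest decile the median log2 fold change was 0.14. The medians in the strongest decile were the same sign in both treatments, -0.12 in Dex and -0.13 in control. With loess offsets, which centre the genotype difference at every level, the medians of the 10 level classes lay within -0.02 and 0.01. That scaling called 562 peaks (0.277%), 366 higher (0.181%) and 196 lower (0.0967%) in KO cells, and 238 of these were among the 587. Total counts as scaling gave 338 higher and 443 lower.

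**Figure D1:**
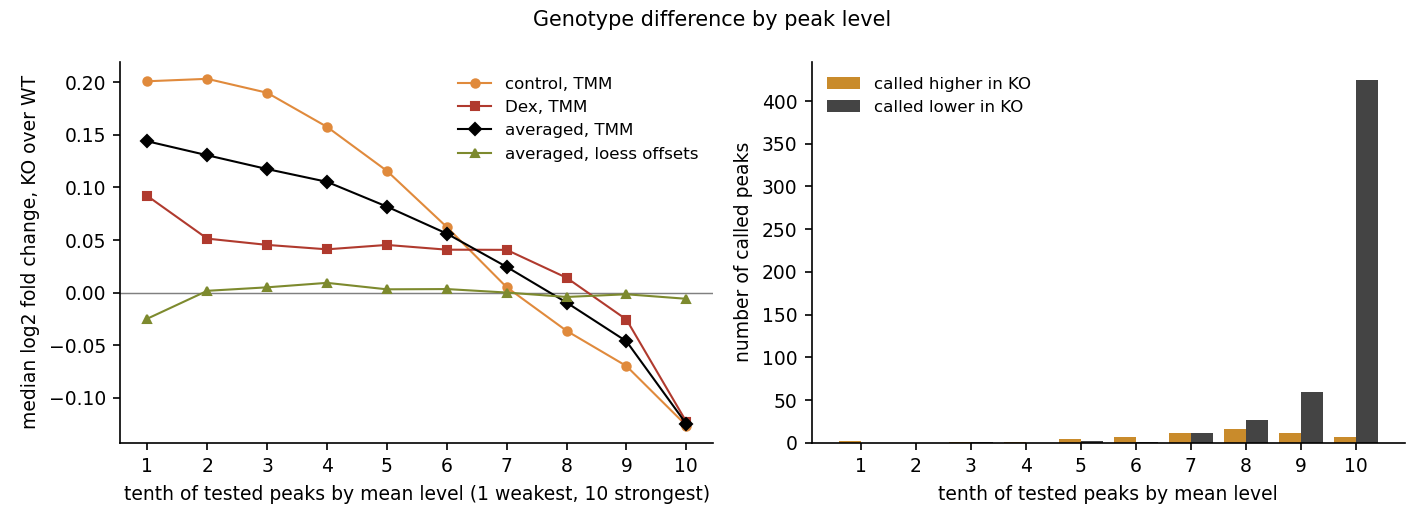
Left, median log2 fold change, KO over WT, in each decile of tested peaks ordered by mean level, for control, Dex and the average of both under TMM scaling and for the average under loess offsets. Right, the number of called peaks in each decile, with 425 of 527 lower calls in the strongest.

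The libraries leaned the same way on average, but the share of the strongest peaks did not pass the threshold after adjustment. The strongest 10% of peaks held 59.6% ± 1.61 of counts in KO libraries and 61.9% ± 1.33 in WT libraries (SD, n = 6 each; exact permutation within treatment, two-sided p = 0.025, 0.0575 adjusted over 23 shares). The genotypes overlapped in this share, at 57.9% to 61.6% in KO libraries and 60.6% to 63.5% in WT libraries. Without WT Dex replicate 1 or 2 the difference in mean share was -2.05 or -2.06 percentage points, with an exact permutation p of 0.06 in both cases. Peaks that overlap an annotated gene start held 27.8% ± 0.657 of counts in KO libraries and 29.6% ± 0.819 in WT libraries. The highest KO library, at 28.78%, was below the lowest WT library, at 28.84%. This difference had an exact permutation p of 0.005, the smallest that 400 arrangements can give, and 0.023 after adjustment, and it kept its direction without any single library. Peaks outside gene spans held 36.2% ± 0.114 of counts in KO libraries and 35.9% ± 0.141 in WT libraries (exact permutation p = 0.005, adjusted 0.023). Chromosomes 10, 17 and X also held lower shares in KO libraries at the same adjusted p of 0.023; for X the shares were 1.41% in KO libraries and 1.44% in WT libraries. The part of these shares in the single-peak calls was not tested.

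**Figure D2:**
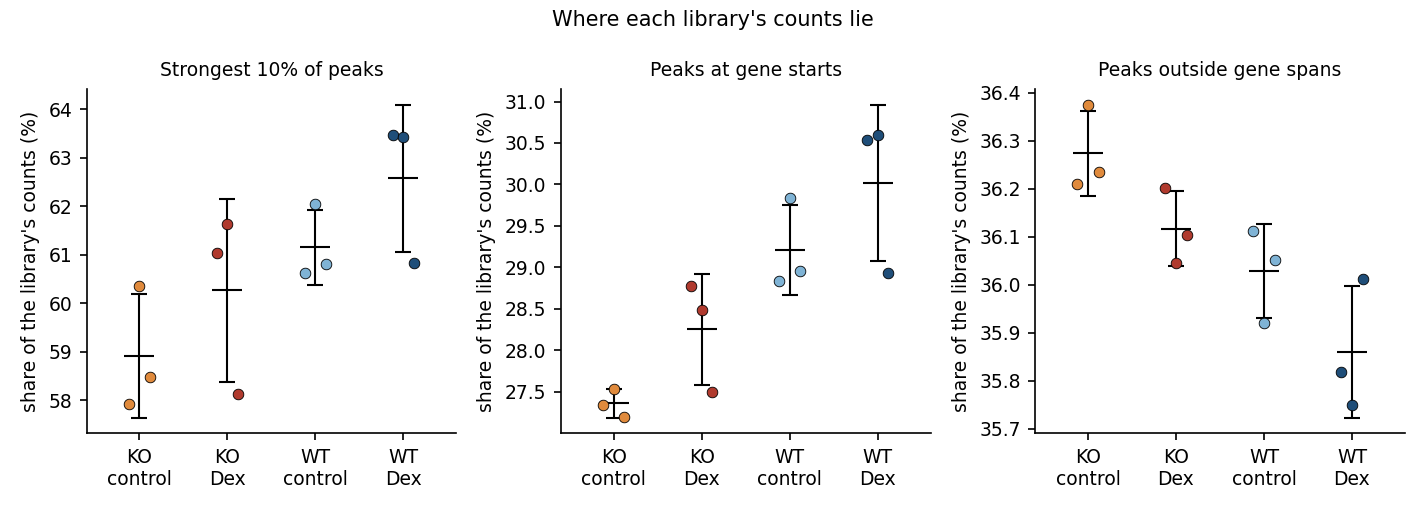
Share of each library's counts, in percent, in the strongest 10% of peaks, in peaks at gene starts and in peaks outside gene spans, with the mean and SD of 3 libraries per group; axes do not start at 0. At gene starts each KO library lies below each WT library, 28.78% being the highest KO value and 28.84% the lowest WT value. In the strongest peaks and outside gene spans the genotypes overlap.

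Gene starts carried much of the lower set. Chromosome 18 is left out of the counts and shares at gene starts, in the text above, in this paragraph and for the sequence windows that follow. Of 12927 tested peaks at gene starts, 288 were called lower (2.23%) and 0 higher, against 103 lower and 21 higher of 78619 peaks outside genes. Outside chromosome 18, 56.2% of the called lower peaks lay at a gene start, 0% of the called higher peaks and 6.58% of all tested peaks. Within the strongest decile, 7289 peaks at gene starts had a median log2 fold change of -0.18 and 97.1% were lower, against -0.09 and 78.0% for the other 12429 peaks outside chromosome 18. The medians at those gene starts were -0.17 in Dex and -0.18 in control. With loess offsets they were -0.05 at gene starts and 0.03 elsewhere.

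The gene-start windows of 300 bases in the lower set were also richer in G and C. The median was 66.3% for 437 windows in called lower peaks, 60.3% for 16541 windows in any tested peak and 52.7% for all 32851 windows. A GC box, the letters GGGCGG on either strand, occurred in 77.6%, 59.0% and 35.7% of these windows. An ETS motif, CCGGAAG, occurred in 15.1%, 15.3% and 8.86%, and an AP-1 motif, TGANTCA, in 6.18%, 6.38% and 7.81%. The ROR motif, GGTCA preceded by AANTN, occurred in 0.458%, 0.453% and 0.606%. The palindrome of GNACA and TGTNC spaced by 3 bases, which is bound by the glucocorticoid receptor, occurred in 0 windows of the called lower set, in 0.339% of the tested windows and in 0.475% of all windows. These counts describe letters in the windows, in which the motifs searched cannot be told apart from base composition. The sets of windows were not matched for peak level, and over all chromosomes 425 of the 527 lower calls lay in the strongest decile. The part of peak level in the G and C content was not tested.

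The clearest treatment-independent difference was a run of 57 consecutive tested peaks on chromosome 5, from 65844768 to 66004802 (mm10, 160 kb), all lower in KO cells. It covers Rhoh, a gene of blood cells needed for T cell receptor signalling, and Chrna9, which encodes a nicotinic acetylcholine receptor subunit, and its outermost peaks were assigned to N4bp2 and Rbm47. The median log2 fold change was -0.90, with a range from -1.71 to -0.14, and 26 of the 57 peaks were called. These peaks summed to 166, 185 and 175 CPM in KO control libraries and to 195, 200 and 166 CPM in KO Dex libraries. In WT control libraries they summed to 343, 354 and 362 CPM, and in WT Dex libraries to 356, 367 and 341 CPM. The ratio of KO to WT was 0.527 in Dex and 0.497 in control. No peak of the run was called for the interaction of genotype and treatment, and 3 had an unadjusted interaction p under 0.05 by edgeR. Of the 57 estimates, 36 lay within 1 SE of a log2 fold change of -1 and 50 within 2 SE. Counts in a peak depend on DNA copies as well as on accessibility, and these cannot be told apart here.

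The lower levels were found at strong and weak peaks of the run. The 20 peaks of at least 5 CPM in WT cells had log2 fold changes between -1.31 and -0.49, and 19 of them were called. The 29 peaks assigned to Rhoh had a median of -0.93 with 15 called, and the 25 assigned to Chrna9 a median of -0.89 with 11 called. With loess offsets the median of the run was -0.91 and 26 peaks were called. In the 400 kb on either side, 151 peaks had a median of 0.07. On the Rbm47 side the first peaks past a gap without tested peaks were higher in KO cells. There the peaks at 66031939 and 66034044 were called, at log2 0.76 ± 0.18 and 0.83 ± 0.12 (SE), and those at 66035576 and 66038252 stood at 1.00 ± 0.35 and 1.13 ± 0.31 without passing the test.

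**Figure D3:**
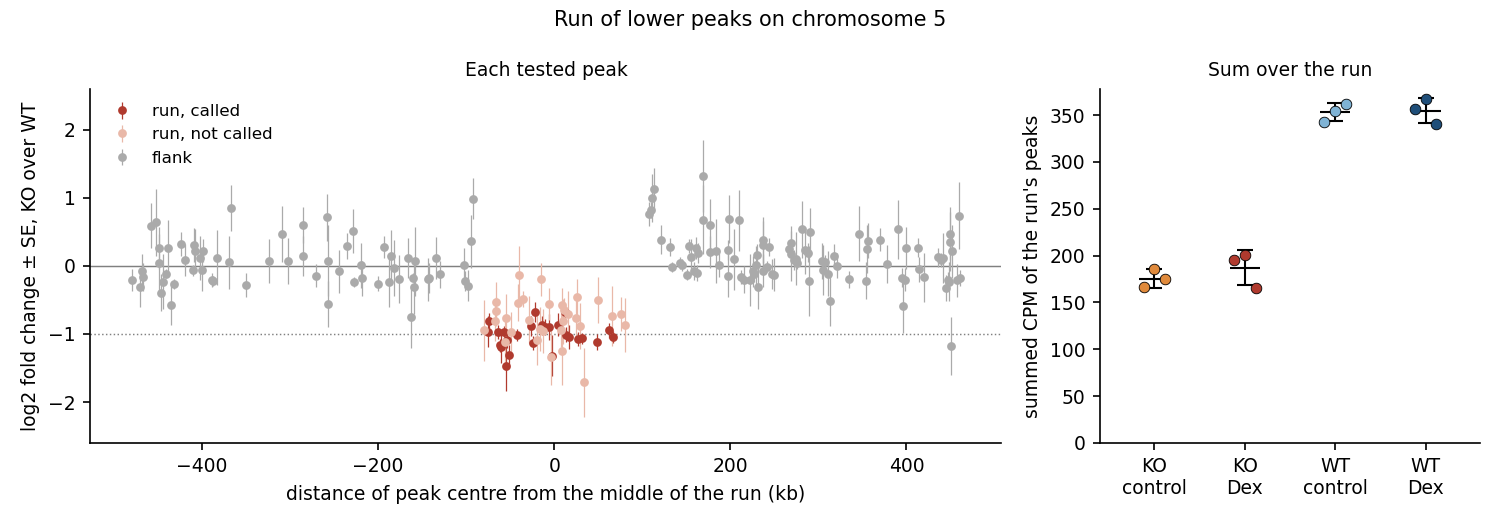
Left, log2 fold change with its SE, KO over WT, of every tested peak in the chromosome 5 run and in 400 kb on either side, by distance from the middle of the run in kb; the dotted line marks -1. Right, summed CPM of the 57 peaks in each library with the mean and SD of 3 libraries per group, where KO libraries lie between 166 and 200 CPM and WT libraries between 341 and 367 CPM.

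The peak over the start of Rhoh, from 65862850 to 65863924, held 7.32, 8.09 and 9.36 CPM in KO control libraries and 9.68, 9.99 and 9.72 CPM in KO Dex libraries. In WT control libraries it held 18.6, 22.1 and 18.8 CPM, and in WT Dex libraries 22.9, 21.7 and 17.3 CPM. The groups did not overlap, and the log2 fold change was -1.17 ± 0.09 (SE, n = 6 each, edgeR adjusted p = 1.88e-13). The 5 other leading peaks of the run were lower by similar amounts. In the peak within Chrna9 from 65955246, KO cells averaged 18.6 ± 2.97 CPM and WT cells 39.0 ± 2.46 CPM (SD, n = 6 each). At the peak within Rhoh from 65866277 the log2 fold change was -0.97 ± 0.08, and at the one from 65882539 it was -1.01 ± 0.09. The peak from 65900750, outside Rhoh, had -1.13 ± 0.10 and that from 65991020, outside Chrna9, had -1.05 ± 0.09. All 6 were called without each of the 12 libraries in turn.

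The gene-start window of Rhoh (chr5:65863334-65863633, GRCm38.p6, plus strand, RefSeq) lies wholly inside that peak and is shown because the peak over it had the smallest p of all peaks at gene starts. It holds none of the 5 motifs on either strand, and capitals mark no base in it.
Rhoh: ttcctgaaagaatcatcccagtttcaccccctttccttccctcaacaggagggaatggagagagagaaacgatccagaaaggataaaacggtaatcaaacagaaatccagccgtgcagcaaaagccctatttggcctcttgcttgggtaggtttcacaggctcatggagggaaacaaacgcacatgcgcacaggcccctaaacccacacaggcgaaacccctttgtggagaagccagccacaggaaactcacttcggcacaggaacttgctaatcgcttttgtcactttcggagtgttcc

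Runs were also chosen in the libraries of 1 treatment and measured in those of the other, which share no library. Chosen in Dex, the longest lower run was the same 57 peaks, and 55 of them were lower in control libraries, with sums of 175 CPM in KO cells and 353 CPM in WT cells. Chosen in control, the longest lower run was 26 peaks assigned to Chrna9 and Rbm47, and 26 of 26 were lower in Dex libraries, at 78.2 CPM in KO cells and 153 CPM in WT cells. An 18-peak run over N4bp2 and Rhoh chosen in control was lower in Dex at 18 of 18 peaks, with a log2 ratio of sums of -0.95. Each of these, and the next run, had an exact permutation p of 0.1, the smallest that 3 against 3 libraries can give. A 20-peak run over Cog3, Slc25a30 and Tpt1 chosen in control had 12 peaks lower in Dex and a log2 ratio of -0.23. With a minimum count of 30 the longest lower run chosen in control was another, 29 peaks on X over Enox2 and Arhgap36 with a log2 ratio of -0.16 in Dex, and none of the 3 longest lay on chromosome 5. That chosen in Dex still lay there, with 32 peaks and a log2 ratio of -1.03 in control. The longest higher run chosen in control, 41 peaks over Megf6, Arhgef16 and Prdm16, was higher in Dex at 14 peaks, with a log2 ratio of -0.11 (exact permutation p = 0.6). The longest higher run chosen in Dex, 24 peaks over Ncf4, Csf2rb2 and Csf2rb, was higher in control at 15 peaks, with a log2 ratio of 0.03 (exact permutation p = 0.8).

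Single peaks outside the run carried over unevenly between treatments. The 500 peaks with the smallest p in control libraries comprised 376 lower ones, and 94.7% of these were also lower in Dex libraries, against 48.3% of all tested peaks outside the run. The median log2 fold change of these 376 in Dex was -0.21. The 124 higher ones were higher in Dex in 44.4% of cases. Chosen in Dex, 328 lower peaks were lower in control in 55.5% of cases and 172 higher ones were higher in 62.8%. Over all tested peaks outside the run these shares were 48.4% and 51.6%. With loess offsets the shares were 77.3% and 57.9% for peaks chosen lower and higher in control, and 40.8% and 88.0% for those chosen lower and higher in Dex. The all-peak shares in the same order were 49.8%, 50.2%, 50.4% and 49.6%. None of the all-peak shares was matched for level, and 85.1% of the strongest decile was lower in the averaged TMM fit. The part of peak level in the carry-over was not tested. Across 202530 peaks the log2 fold changes of the 2 treatments had a Pearson correlation of 0.0288, and of -0.00497 with loess offsets; neighbouring peaks are not independent.

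By treatment, 345 peaks were called for genotype in Dex (0.17%) and 21 in control (0.0104%). In Dex 81 were higher (0.04%) and 264 lower (0.13%), and in control 2 were higher (0.000987%) and 19 lower (0.00938%). The interaction was called at 56 peaks (0.0276%), 1 of them positive (0.000494%) and 55 negative (0.0271%). The Dex count was 195 without KO Dex replicate 1, and 152 or 204 when WT Dex replicate 1 or 2 was left out. The control count was 13 without KO control replicate 2, 54 without KO Dex replicate 3, and 0 when the peaks of the chromosome 5 run were left out. For the interaction the count was 31 without KO control replicate 3, 33 and 177 without KO Dex replicates 1 and 3, 34 with WT control replicate 3 left out and 29 with WT Dex replicate 1 left out. Of the 587 averaged calls, 585 had the same sign in both treatments, and 494 had an unadjusted p under 0.05 in both by edgeR. Only the Dex libraries passed that level at 78 peaks, and only the control libraries at 15. Of the 587, 3 were called for the interaction and 67 had an unadjusted interaction p under 0.05. The 587 were chosen by their averaged p in these same libraries, which favours a shared sign and a small p in each treatment.

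**Figure D4:**
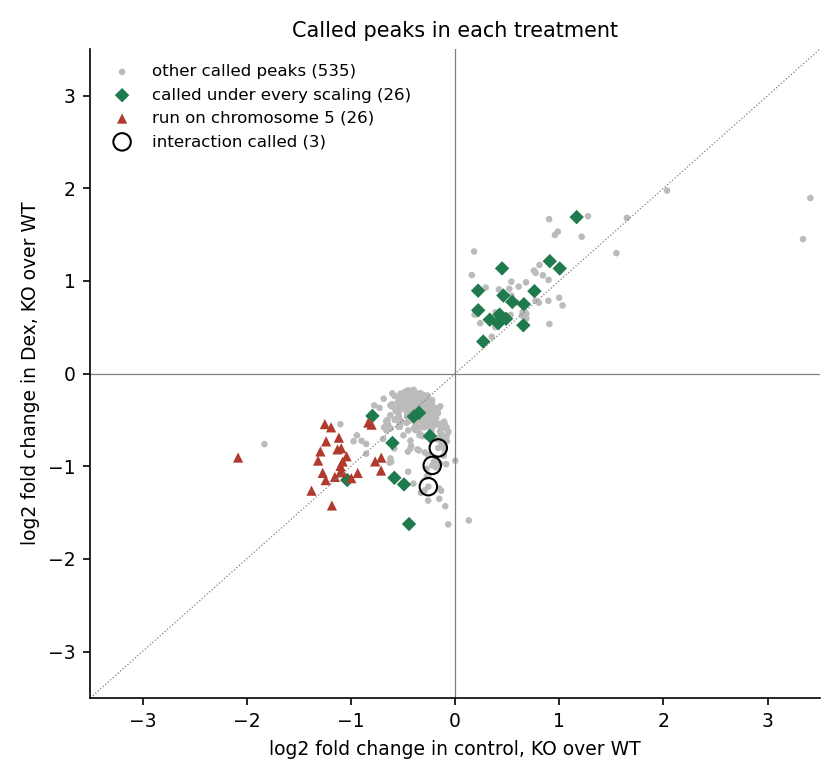
Log2 fold change, KO over WT, in Dex against that in control for the 587 called peaks; triangles are the 26 called peaks of the chromosome 5 run, diamonds the 26 other peaks called under every scaling, and circles the 3 peaks called for the interaction. Nearly all points lie in the lower left or upper right quadrant, 585 having the same sign in both treatments, which the averaging favours.

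Outside the run, 26 peaks were called under TMM and under all 4 other scalings (DESeq2 size factors, total counts, loess offsets and the share in the strongest peaks as a covariate), 9 lower and 17 higher in KO cells. With the run the number was 42, or 0.0207% of tested peaks. Of the 26, 22 had an unadjusted p under 0.05 in both treatments and 6 had an unadjusted interaction p under 0.05 by edgeR. The 26 were chosen by their averaged p in these same libraries, which favours a small p in each treatment.

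The leading higher peak lay 20100 bases outside Pmaip1, which encodes the pro-apoptotic BH3-only protein Noxa, on chromosome 18 from 66485414 to 66485903. It held 5.34, 5.43 and 7.68 CPM in KO control libraries and 4.80, 7.19 and 5.55 CPM in KO Dex libraries. WT control libraries held 2.67, 3.60 and 3.38 CPM and WT Dex libraries 1.95, 2.85 and 2.72 CPM. Each KO library was above each WT library, and the log2 fold change was 1.06 ± 0.15 (SE, edgeR adjusted p = 1.8e-05), with 1.21 in Dex and 0.91 in control. None of the other tested peaks of Pmaip1, which has 30, passed the test.

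Fkbp5, an Hsp90 co-chaperone that lowers the hormone affinity of the receptor and is a classical glucocorticoid-induced gene, had 1 called peak of 42. It lies within the gene on chromosome 17 from 28431937 to 28432819. The peak held 17.8, 17.5 and 17.0 CPM in KO control libraries and 18.5, 17.3 and 16.2 CPM in KO Dex libraries. In WT control libraries it held 13.2, 12.4 and 13.6 CPM and in WT Dex libraries 12.1, 11.9 and 11.7 CPM. The genotypes did not overlap, and the log2 fold change of 0.48 ± 0.09 (SE, edgeR adjusted p = 0.00415) was 0.54 in Dex and 0.41 in control.

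Near G0s2, which encodes an inhibitor of the triglyceride lipase ATGL, a weak peak 4164 bases outside the gene averaged 1.88 ± 0.234 CPM in KO cells and 0.695 ± 0.183 CPM in WT cells (SD, n = 6 each; log2 1.42 ± 0.26). The Rbm47 peak from 66034044 averaged 9.44 ± 1.64 CPM in KO cells and 5.33 ± 0.406 CPM in WT cells. These 4 peaks, and that within the cAMP phosphodiesterase gene Pde4d (log2 0.72 ± 0.14), were the 5 higher peaks called without each library in turn. The Pde4d peak missed the threshold with the share in the strongest peaks as a covariate, at an edgeR adjusted p of 0.0784. Other higher peaks called under every scaling lay within Galc, a lysosomal galactolipid hydrolase (log2 0.53 ± 0.11), within Mgll, a monoglyceride lipase (0.46 ± 0.10), within Panx1, a channel that releases ATP (0.70 ± 0.15), near Ccr2, a chemokine receptor (1.07 ± 0.24), and within Tsc1, an inhibitor of mTORC1 (0.59 ± 0.13). Their calls were kept in 9, 8, 6, 5 and 3 of the 12 fits that left out a library, with the highest adjusted p at 0.121 for Galc and 0.115 for Ccr2, and all 5 were lost without WT Dex replicate 2. At Galc and Ccr2 each KO library was above each WT library, and at the other 3 the genotypes overlapped. The other members of this set lay within Gm11541, Wdr43, Psmf1 and Lsm4, near Cnot6 and Fam167b, and at 2 sites on chromosome 13 over 50 kb from a gene, with log2 fold changes between 0.31 and 0.78. Among the 12 higher calls with the smallest p, Csta1 (1.24 ± 0.24), Mtus2 (1.41 ± 0.28) and Col16a1 (0.70 ± 0.15) were not called with that covariate.

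**Figure D5:**
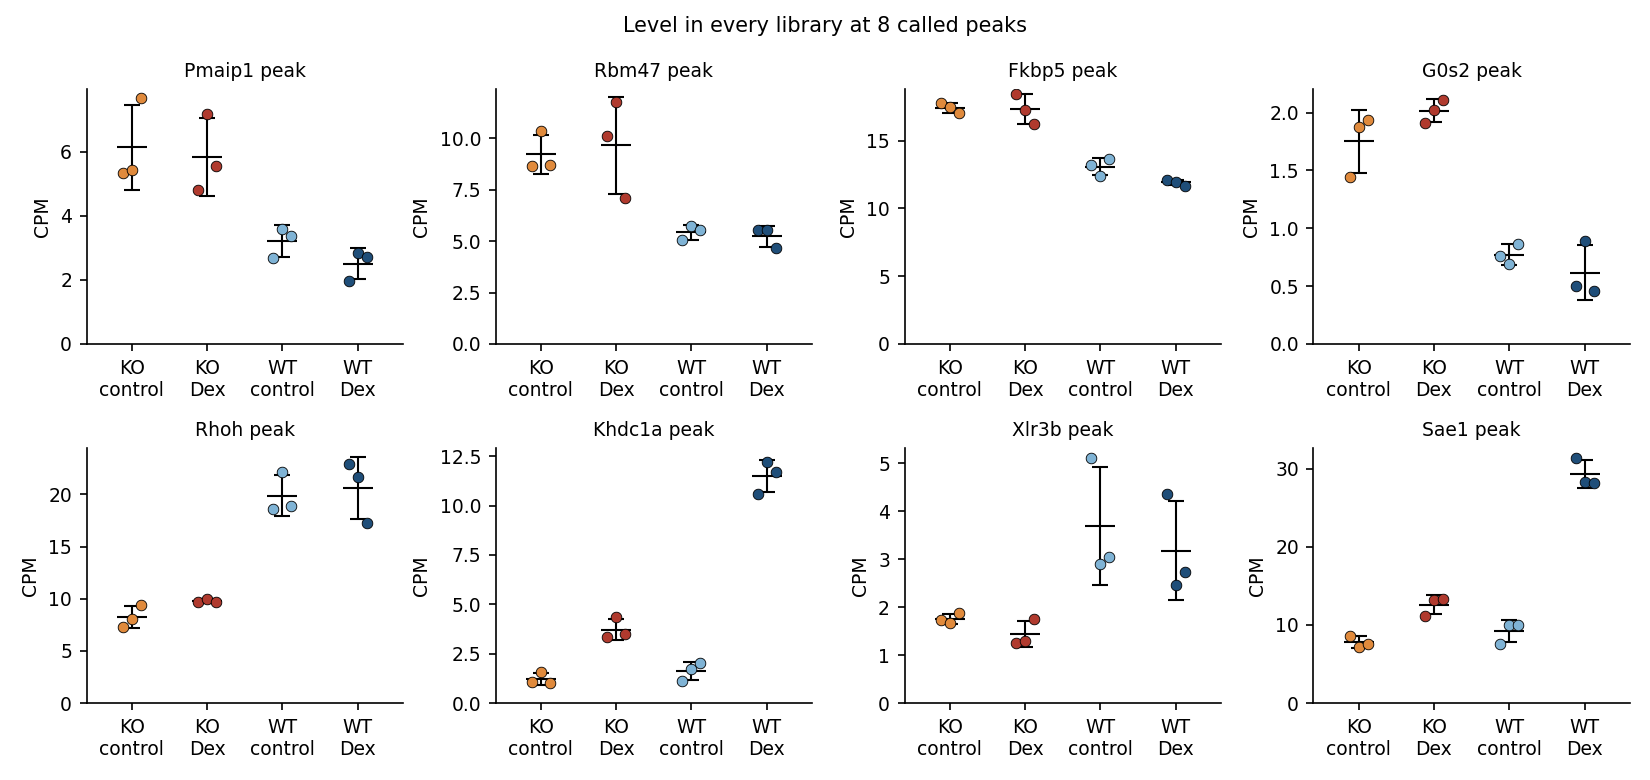
CPM in every library at 8 called peaks, with the mean and SD of 3 libraries per group; vertical axes start at 0. Pmaip1, Rbm47, Fkbp5 and G0s2 are higher and Rhoh and Xlr3b lower in each KO library than in each WT library, whereas the Khdc1a and Sae1 peaks differ mainly in Dex.

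Among the 9 lower peaks of that set, 3 that lay in or at the start of a gene had each of the 6 KO libraries below each of the 6 WT libraries. Within Ablim1, an actin-binding LIM protein, KO libraries held 23.9 to 29.6 CPM, with a median of 26.1 CPM, and WT libraries 30.6 to 41.9 CPM, with a median of 35.3 CPM (log2 -0.43 ± 0.07, edgeR adjusted p = 0.00126). Within Snd1, a nuclease-domain protein of RNA-silencing complexes, KO cells averaged 9.75 ± 0.643 CPM and WT cells 15.1 ± 3.38 CPM (log2 -0.62 ± 0.11). At the start of Xlr3b, a member of a multicopy X-linked lymphocyte-regulated family, KO control libraries held 1.74, 1.67 and 1.87 CPM and KO Dex libraries 1.26, 1.29 and 1.74 CPM. WT control libraries held 5.11, 2.91 and 3.05 CPM there and WT Dex libraries 4.35, 2.46 and 2.72 CPM. Its log2 fold change was -1.09 ± 0.19, and without WT Dex replicate 1 it was -0.96 with an adjusted p of 0.0509. Reads from near-identical copies may be split or lost at this family, so the value is uncertain.

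Cul3, the scaffold of a family of ubiquitin ligases, was lower at its start, at 38.0 ± 3.14 CPM in KO cells and 49.6 ± 5.24 CPM in WT cells (log2 -0.39 ± 0.07). The genotypes did not overlap within either treatment, and the call was lost without WT Dex replicate 2, at -0.34. Gnal, a G protein alpha subunit, stood at -0.68 ± 0.12 and lost its call without WT Dex replicate 1, at -0.63. A peak on chromosome 9 from 115665211, 219018 bases from the nearest gene, was lower at -0.88 ± 0.14. Below the threshold under some scalings but called without each library were the start of Inpp5a, an inositol phosphate phosphatase (-0.40 ± 0.07), a peak near Malt1, the paracaspase between the T cell receptor and NF-kB (-0.41 ± 0.07), and peaks within Ggh (-0.53 ± 0.10), Rax (-0.50 ± 0.10) and 1700018B08Rik (-0.81 ± 0.14). Peaks named here beyond the 12 leading ones of each direction, such as those of Snd1, Xlr3b, Cul3 and Ccr2, were chosen after their values were seen.

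The gene-start windows of Xlr3b (chrX:73191929-73192228, plus strand) and Cul3 (chr1:80340641-80340940, minus strand), both GRCm38.p6 from RefSeq, are shown because these were the 2 gene starts outside the run that were called under every scaling. Capitals mark GC boxes, of which Cul3 has 3; none of the 5 motifs was in the Xlr3b window.
Xlr3b: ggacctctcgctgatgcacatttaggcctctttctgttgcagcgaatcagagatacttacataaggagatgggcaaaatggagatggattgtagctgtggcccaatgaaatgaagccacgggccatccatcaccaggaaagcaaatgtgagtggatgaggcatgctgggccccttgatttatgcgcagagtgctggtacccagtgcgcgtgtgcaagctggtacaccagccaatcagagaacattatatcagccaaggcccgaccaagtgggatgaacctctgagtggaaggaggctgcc
Cul3: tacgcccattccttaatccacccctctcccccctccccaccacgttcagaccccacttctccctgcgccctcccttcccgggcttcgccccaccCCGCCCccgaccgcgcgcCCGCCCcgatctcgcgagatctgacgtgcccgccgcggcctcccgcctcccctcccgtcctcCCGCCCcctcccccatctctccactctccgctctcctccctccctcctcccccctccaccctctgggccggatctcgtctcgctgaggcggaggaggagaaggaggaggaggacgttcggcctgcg

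Some averaged calls rested on the Dex libraries. The peak with the smallest p outside the run lay 15892 bases outside Khdc1a, a KH-domain gene in a cluster of similar genes, on chromosome 1 from 21333593. It held 1.08, 1.57 and 1.03 CPM in KO control libraries against 1.14, 1.72 and 2.02 CPM in WT control libraries. In KO Dex libraries it held 3.33, 4.35 and 3.49 CPM against 10.6, 12.2 and 11.7 CPM in WT Dex libraries. The averaged log2 fold change was -1.25 ± 0.17 (SE, edgeR adjusted p = 1.15e-05), with -1.62 ± 0.19 in Dex and -0.44 ± 0.27 in control, and the interaction had an unadjusted p of 7e-04. Sae1, a subunit of the SUMO-activating enzyme, had a peak within the gene with -1.22 in Dex and -0.26 in control, and Mmp25, a membrane-anchored matrix metalloproteinase, a peak with -0.99 and -0.22. Within Fam107b the values were -0.80 in Dex and -0.16 in control. Those 3 were called for the interaction and lost the averaged call with loess offsets. Tnr, Rad51b and Anapc16, all among the 12 leading lower peaks, had unadjusted interaction p values of 0.0024, 0.00015 and 0.00028. Prps1, a nucleotide synthesis enzyme, and the sorting receptor Sorl1 were called under every scaling with -0.67 and -1.20 in Dex and -0.24 and -0.49 in control. Without WT Dex replicate 2 the Prps1 call was lost at -0.40, and without WT Dex replicate 1 that of Sorl1 at -0.85.

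No other run came near the chromosome 5 run in length. The next longest lower run had 22 peaks on chromosome 10 over Ube2d1, Cisd1 and Ipmk, with a median log2 fold change of -0.18 and 0 called peaks. It was followed by 18 peaks from Lgr5 to Ptprb (-0.20), and by 4 runs of 17 peaks. Those lay around Khdc1a (-0.40, 2 called peaks), within Pde4d (-0.22), over Trpm3 and Klf9 (-0.36), and on X around Dmd (-0.25). The Khdc1a run had a KO to WT ratio of summed CPM of 0.587 in Dex and 0.884 in control, and the run over Klf9, a glucocorticoid-induced transcription factor gene, 0.678 in Dex and 1.01 in control. The longest higher run had 25 peaks over Chst11 and Slc41a2 on chromosome 10 (median 0.16), with 0 called peaks. Runs of 22 peaks among zinc finger genes on chromosome 4 (0.79) and of 21 peaks over Hjurp and Trpm8 (0.63) had sums that overlapped widely between genotypes, 7.73 to 34.1 CPM in KO libraries against 3.85 to 21.5 CPM in WT libraries for the zinc finger genes. Further runs of 21 peaks covered Tnfsf15 (0.28), Kazn (0.24), Wdr1 (0.34), Havcr1 (0.21) and Runx1 (0.25). The sums did not overlap for Wdr1, an actin-disassembly factor, at 73.2 to 82.8 CPM in KO libraries and 65.9 to 70.5 CPM in WT libraries, nor for Tnfsf15, Runx1 and the lower run from Lgr5 to Ptprb. Runs were chosen by the sign of these libraries, which favours such separation.

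In fixed 100 kb bins, which do not follow the sign of a peak, 722 of 15301 bins were called (4.72%), 372 lower (2.43%) and 350 higher (2.29%) in KO cells. The count was 406 without KO control replicate 3, 363 without KO Dex replicate 3, and 329 or 340 when WT Dex replicate 1 or 2 was left out. The median size of the called differences was 0.16 on the log2 scale. The 2 bins with the smallest p were those of the chromosome 5 run, at -0.90 ± 0.03 and -0.82 ± 0.03 (SE). Next among the lower bins were those holding Txnip on chromosome 3, with 39 peaks at 260 CPM in KO cells and 304 CPM in WT cells on average (log2 -0.23 ± 0.03), Adgra3 on chromosome 5 (-0.37 ± 0.05) and Ppp2r3d on chromosome 9 (-0.25 ± 0.04). The bin values given here are averages over both treatments. A called single peak near Txnip stood at -0.95 in Dex and -0.20 in control. Leading the higher bins was that of Lif, an interleukin-6 family cytokine, and Hormad2 (0.24 ± 0.04). The bin of Tnfsf15 and Tnfsf8, both TNF-family ligands, was at 0.28 ± 0.05, and that of Il4, Il13 and Rad50, the type 2 cytokine locus, at 0.20 ± 0.03. The bins of Foxo3 and of Itgam, Itgax and Itgad were at 0.34 ± 0.06 and 0.27 ± 0.05. The strongest single peak of Itgam stood at -0.22 ± 0.07 and that of Itgax at 0.11 ± 0.10, neither of them called. Of all called bins, 23 differed by more than 0.5, and only 6 of these held 5 or more peaks. Outside the run the largest such difference was 0.59.

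Called peaks outside the run were spread over the genome. The 2 Mb windows with the most held 5 each. One, on chromosome 1 from 20000001 to 22000000, held 5 calls of 160 tested peaks (3.1%), at Khdc1a, Il17a, Mcm3 and Tram2. Another on chromosome 9 from 96000001 held 5 lower peaks of 200 tested (2.5%), at Rasa2, Atp1b3 and Gk5. On chromosome 18 the window from 66000001 held 4 lower calls and that of Pmaip1, of 239 tested peaks (2.09%). The window before it held 4 lower calls of 246 tested peaks (1.63%), at Malt1, Rax and Atp8b1. Over all tested peaks the share was 0.29%. These windows were picked for their number of calls, which favours a high share, and clustering was not tested.

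Among 24 genes of the receptor, its chaperones and its cofactors, 1 gene had a called higher peak and 3 a called lower one, and 0.813% of their 492 peaks were called, against 0.29% of all tested peaks. Fkbp5 was the higher gene. The lower genes were Hspa8, which encodes the constitutive Hsc70 chaperone (-0.28 ± 0.07), Bag1, an Hsp70 nucleotide exchange factor (-0.36 ± 0.08), and Ncoa2, a p160 coactivator (-0.28 ± 0.07). The median log2 fold change of the list was 0.06, against 0.02 over all tested peaks. These 3 lower calls were kept in 2, 3 and 2 of the 12 fits that left out a library, and with loess offsets no gene of the list had a called lower peak. Outside the chromosome 5 run, the calls of every list gene named from here on that lost its call in some of these fits were lost without WT Dex replicate 1 and without WT Dex replicate 2. The summed level of the list was 2313 to 2634 CPM in KO libraries and 2492 to 2747 CPM in WT libraries.

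Of 30 receptor target genes, 29 had a peak, 2 had a called higher peak and 4 a called lower one, with 1.41% of 569 peaks called and a median of -0.01. Besides Fkbp5, Zbtb16, a transcription factor of innate-like T cells, had a higher peak within the gene (3.09 ± 0.602 CPM in KO cells, 1.77 ± 0.426 CPM in WT cells, SD, n = 6 each; log2 0.83 ± 0.19). The lower peaks at Txnip, an inhibitor of thioredoxin and of glucose uptake, at Zfp36l2, an mRNA-decay factor, and at Il7r, which encodes the IL-7 receptor alpha chain, differed mainly in the Dex libraries. Their log2 fold changes were -0.95, -0.58 and -0.94 in Dex, and -0.20, -0.13 and 0.00 in control. Their unadjusted interaction p values were 0.00046, 0.0038 and 3.1e-05 by edgeR. By contrast the peak near Fos, an AP-1 subunit, was lower in both, by -0.43 in Dex and -0.35 in control, at 41.6 ± 3.08 CPM in KO cells and 54.7 ± 7.54 CPM in WT cells. The Fos call was kept in 10 of the 12 fits that left out a library, the exceptions being WT Dex replicates 1 and 2.

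The 20 AP-1 and NF-kB genes included Fos and, as the other gene with a called peak, Tnfaip3, which encodes the NF-kB inhibitor A20 (-0.28 ± 0.06). That peak lay 46969 bases outside Tnfaip3, near the 50 kb limit of assignment, and overlapped the start of Gm51814. The peaks with the next smallest p lay at Nfkbia and Relb, at adjusted p values of 0.0558 and 0.0579. The list's median was -0.01 and 0.508% of its 394 peaks were called, against 0.29% of all tested peaks. None of the 18 steroid synthesis and metabolism genes, 14 with a tested peak, had a called peak. The smallest adjusted p values there were 0.0747 at Srd5a1, a steroid 5-alpha reductase, and 0.107 at Por, the electron donor of microsomal P450 enzymes.

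Among 25 Th17 genes, Il17a, the signature cytokine, had a called higher peak and Hif1a, a hypoxia-inducible factor that promotes the Th17 state, a called lower one. Of the list's 793 peaks 0.252% were called, near the share of all tested peaks. The Il17a peak lay 4962 bases outside the gene and held 2.10, 1.98 and 3.61 CPM in KO control libraries and 2.16, 2.76 and 3.06 CPM in KO Dex libraries. WT control libraries held 1.30, 1.33 and 1.44 CPM and WT Dex libraries 1.76, 0.781 and 1.42 CPM. The genotypes did not overlap (log2 0.95 ± 0.22, edgeR adjusted p = 0.0301), and the call was kept in 6 of the 12 fits that left out a library. Among 25 genes of other helper T cell states, Lef1 (-0.42 ± 0.10) and Foxp1 (-0.41 ± 0.09), both transcription factors of naive T cells, had called lower peaks, with 0.336% of 893 peaks called, near the share of all tested peaks. For Foxp1 the log2 fold change was -0.69 in Dex and -0.10 in control, with an unadjusted interaction p of 0.00058.

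In the T cell receptor signalling list, 25 genes with 922 peaks, 1.95% of peaks were called, against 0.29% of all tested peaks. There 17 peaks were called lower, 15 of them those of Rhoh. The others lay near Vav1, a guanine nucleotide exchange factor (-0.33 ± 0.08), and near Cd5, an inhibitory surface receptor (-0.81 ± 0.19), and 1 higher peak lay within Nfatc2, a calcium-regulated transcription factor (0.41 ± 0.10). Those 3 calls were kept in 1, 3 and 4 of the 12 fits that left out a library. Pmaip1 alone of 16 apoptosis genes had a called peak, which made 0.292% of their 342 peaks, near the share of all tested peaks. The next smallest edgeR adjusted p was 0.0516 at Bbc3, which encodes Puma (log2 -0.26 ± 0.06). Of 14 genes whose promoters drive Cre in mouse lines used for T cells, Il17a was higher and Il7r and Vav1 lower. That was 1 peak called higher and 2 lower, or 1.32% of 227 peaks, against 0.29% of all tested peaks. No peak of 5 sex-linked genes with tested peaks was called. Summed, they held 280 to 324 CPM in KO libraries and 308 to 359 CPM in WT libraries, with a smallest adjusted p of 0.0736 at Eif2s3x. With loess offsets the calls at Tnfaip3, Zfp36l2, Il7r, Hif1a, Foxp1 and Vav1 were lost. Calls kept with loess offsets but lost with the share in the strongest peaks as a covariate included Fos, Il17a, Zbtb16, Txnip and Lef1. With that covariate their edgeR adjusted p values were 0.278, 0.370, 0.0895, 0.342 and 0.161.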

How the data were processed

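Tn5-accessible chromatin was measured in 12 libraries of 6000 sorted cells each, amplified with 16 PCR cycles per the labels' protocols. Raw counts per joint peak were deposited by the authors, with each peak's length in bases (a value outside the usual units) in the same table. The submitters' processing notes name the build mm10, featureCounts 2.1.1, Genrich 0.6.1, Bowtie2 2.3.5, deepTools 3.5.6, Trimmomatic 0.39, SAMtools 1.3 and Picard 2.18.27, without roles. Peaks are shared by all libraries, and the sources do not say whether they were called on pooled reads.

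From the counts, peaks were filtered with filterByExpr (minimum count 10, minimum total 15), which left out 19518, scaled by TMM and tested with edgeR 4.0.16 (robust quasi-likelihood, limma 3.58.1, R 4.3.3) with treatment as an additive term and 9 residual degrees of freedom. Adjusted p-values are Benjamini-Hochberg values over all tested peaks, called at 0.05. Effects within a treatment and the interaction came from a fit with 1 coefficient per group. CPM are TMM-scaled, and errors of CPM are SD. The median biological coefficient of variation was 25.2%. Genes were those of RefSeq GRCm38.p6, taken up to 50 kb away. Consecutive tested peaks of 1 sign made a run. Scripts were tested on simulated data. Figures used matplotlib 3.10.9 under Python 3.11.15.

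Named were the 12 called peaks with the smallest p per direction, 1 per gene, the 6 leading peaks of the longest run, the 5 longest runs and 5 leading bins per direction, and list genes with a called peak or among the 2 smallest p. The members and the 15 lists were chosen with earlier results of these data known. Alternatives were other scalings, filters, DESeq2 1.42.0, limma-voom, a replicate block, bin sizes and leaving out each library.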

Additional observations from a re-analysis of the deposited data

Results flagged for a closer look

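In groups of 6 libraries, 5 of 150 named groups had a library far from the others, where chance gives about 1 in 20. At the G0s2 peak KO control replicate 1 was low, at 1.44 CPM. At the Mtus2 peak KO Dex replicate 1 was high, at 3.05 CPM, and without it the log2 fold change was 1.22 and the call was lost. At the Wdr43 peak WT Dex replicate 3 was low, at 3.06 CPM. In the chromosome 5 run WT control replicate 1 was high at the Rhoh peak from 65866277, at 40.9 CPM, and WT control replicate 3 at the Rhoh peak from 65860305, at 23.8 CPM.

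The genotype difference itself differed between treatments at 3 of the 587 called peaks by edgeR's interaction test. The effect in Dex minus that in control was -0.96 on the log2 scale at Sae1 (adjusted p = 0.0208), -0.77 at Mmp25 (adjusted p = 0.0323) and -0.64 at Fam107b (adjusted p = 0.0386).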

How the results depend on the processing

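The 587 averaged calls became 2656 with a minimum count of 30, 4550 with DESeq2 (72 higher and 4478 lower), 940 with limma-voom, 1773 with its quality weights, 3189 with a replicate block and 291 with the share in the strongest peaks as a covariate, of which 249 were higher and 42 lower. DESeq2 kept 439 of the 587, with 8 of the 60 higher ones, and the covariate kept 48. Leaving out 1 library gave 45 to 2591. The 21 control calls became 38 with total counts, 49 with loess offsets, 125 with a minimum count of 30, 371 with DESeq2, 247 with quality weights, 173 with a replicate block, 70 with the 6 control libraries alone and 0 without the longest run, with 13 to 54 over single libraries left out. The 345 Dex calls became 894, 1005, 1991, 656, 764 and 1017 in the order total counts, loess offsets, minimum count 30, DESeq2, quality weights and replicate block, 1797 with the covariate, and 152 to 454 over libraries left out. The 56 interaction calls became 113 with total counts, 192 with loess offsets, 202 with a minimum count of 30, 117 with quality weights, 99 with a replicate block, 248 with the covariate, and 29 to 177. The 722 bins became 442 at 250 kb, 1139 with DESeq2, 1251 with a replicate block, 371 with the covariate, and 329 to 939. The cause of these moves was not tested.

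Higher and lower calls split 338 to 443 with total counts and 366 to 196 with loess offsets for the average, 504 to 390 and 542 to 463 in Dex, and 9 to 29 and 22 to 27 in control. With the covariate they split 1222 to 575 in Dex, 279 to 92 in bins and 38 to 210 for the interaction. The share of the strongest 20% of peaks differed by -1.93 percentage points (exact permutation p = 0.06), and that of the strongest 10% by -2.71 to -1.74 over libraries left out. With a minimum count of 30 the longest higher run chosen in Dex was another one, over Rora, at -0.00631. With total counts the longest higher run chosen in control was also another one, from Ugt1a5 to Trpm8, at 0.26. The run over Megf6, Arhgef16 and Prdm16 kept its sign with total counts, at -0.02. The longest lower run chosen in control was another one at -0.16 with a minimum count of 30. Of 72 named peaks none changed sign under any alternative, and 40 lost their call with DESeq2 and 35 with the covariate. These peaks were named by their p in the same libraries, which favours a kept sign. Replicate numbers were not taken to pair the libraries, since correlations of same-numbered deviations ran from -0.131 to 0.282 and not all passed 0.1. Depth left 19518 peaks under the count minimum and untested.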
